A study of Mus musculus with 6 samples.

Results

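Lipid droplet coat genes are described here as 10 genes of the mouse liver, the perilipin genes Plin2, Plin3, Plin4 and Plin5, the CIDE genes Cidea, Cideb and Cidec, the dehydrogenase genes Hsd17b13 and Hsd17b11, and Fitm2. They were chosen as named proteins of the lipid droplet, by the Ensembl gene ID of each row of the count table, and all 10 were found among 49671 genes. Of the 10 members, 9 passed edgeR's filter on low counts, and 13773 genes passed it in all. Bulk liver RNA from 3 p75NTR KO mice (replicates 1, 2 and 4) and 3 wild-type (WT) mice (replicates 1, 2 and 3) was sequenced after polyA selection. All mice were 6 months old, were housed under standard conditions, and carry the strain label B6.1129S4-Ngfr/J in both genotypes. The KO is a germline allele and is not limited to a cell type of the liver. The allele lacks an exon inside Ngfr, and reads of its other exons can still be counted.

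A lipid droplet is a store of triglyceride and cholesteryl ester enclosed by a phospholipid monolayer that carries a coat of proteins. Perilipins cover the droplet and control the access of lipases, CIDE proteins transfer lipid between droplets that touch, and droplets emerge from the endoplasmic reticulum, where FITM2 acts. In hepatocytes PLIN2 is the perilipin commonly used as a mark of fat storage, and the genes Plin2, Plin5, Cidea and Cidec are known targets of PPAR nuclear receptors. The amount of coat protein depends also on the lipid present, and only RNA was measured here.

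Total counts per library were 29784429 to 32664149 in KO and 27107209 to 31412855 in WT livers. Values are given as CPM, which are counts scaled to library size with TMM factors, and a call is an adjusted p under 0.05 over all genes. Ngfr, which encodes p75NTR, had 1.68, 0.835 and 1.61 CPM in KO livers, against 4.32, 4.63 and 2.83 CPM in WT livers (log2 fold change of KO over WT -1.51, standard error (SE) 0.34, with an edgeR adjusted p of 0.257 and a DESeq2 adjusted p of 0.00606, and -1.64 by edgeR without KO replicate 4, adjusted p = 0.112). The 6 hepatocyte markers, albumin among them, summed to 100776 to 120031 CPM in KO and 109164 to 125509 CPM in WT livers. KO replicate 4 stood apart from the other 5 libraries, with 4712 counts of 4 Y-linked genes against 0 to 2 and with 16 counts of Xist against 6599 to 9554. The 6 male-biased liver genes listed summed to 7737 CPM in KO replicate 4, against 63.1 to 243 CPM in the other 5 libraries. The 6 female-biased liver genes summed to 3.88 CPM in KO replicate 4, against 1002 to 2029 CPM. KO replicate 4 thus had the sex-linked and sex-biased RNA of a male and the other 5 libraries that of females, while the labels give no sex. The KO group mixes these patterns and the WT group does not. In values over all 6 libraries, sex is therefore partly confounded with genotype. The fold changes of the members tested are therefore also given without KO replicate 4. Nothing states that the mice of a genotype came from separate litters, so the p-values measure the spread between these samples. In bulk tissue, fewer cells of a type and less RNA per cell cannot be told apart.

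Promoter sequences are shown for the members whose KO and WT values lay apart or whose unadjusted p was lowest, and for Plin2, which had the highest CPM of the perilipins. They are the RefSeq windows of the GRCm38.p6 build, which run from 250 bases before to 50 bases after the start of the gene, written 5′ to 3′ on the strand of the gene. Capitals mark the motifs found by a search of both strands. The motifs searched were a direct repeat of AGGTCA with any 1 base between the copies and up to 2 mismatches, the form that PPAR dimers are known to bind, the single hexamer AGGTCA, the E-box CACGTG, the sterol element TCACNCCAC, the CCAAT box and the TATA box TATAAA.
Fitm2, chr2:163472580-163472879, minus strand: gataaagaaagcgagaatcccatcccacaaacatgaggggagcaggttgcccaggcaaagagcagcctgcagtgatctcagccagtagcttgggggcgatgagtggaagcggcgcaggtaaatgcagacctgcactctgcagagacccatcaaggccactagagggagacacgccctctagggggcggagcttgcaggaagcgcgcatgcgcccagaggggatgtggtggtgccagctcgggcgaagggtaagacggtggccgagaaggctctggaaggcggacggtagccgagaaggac
Plin4, chr17:56109733-56110032, minus strand: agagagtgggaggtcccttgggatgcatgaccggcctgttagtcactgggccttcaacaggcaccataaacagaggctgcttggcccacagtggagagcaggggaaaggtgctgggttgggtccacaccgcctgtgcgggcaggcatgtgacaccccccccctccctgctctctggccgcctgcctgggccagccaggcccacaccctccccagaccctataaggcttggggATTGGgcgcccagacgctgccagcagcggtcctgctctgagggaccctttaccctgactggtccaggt
Plin2, chr4:86670010-86670309, minus strand: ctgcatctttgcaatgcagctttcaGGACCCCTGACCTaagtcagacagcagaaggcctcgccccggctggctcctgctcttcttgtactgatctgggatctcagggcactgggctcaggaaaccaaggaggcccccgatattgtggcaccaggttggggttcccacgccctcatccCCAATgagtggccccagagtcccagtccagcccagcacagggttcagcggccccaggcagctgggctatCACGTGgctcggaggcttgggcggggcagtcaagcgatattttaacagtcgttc
Hsd17b13, chr5:103977339-103977638, minus strand: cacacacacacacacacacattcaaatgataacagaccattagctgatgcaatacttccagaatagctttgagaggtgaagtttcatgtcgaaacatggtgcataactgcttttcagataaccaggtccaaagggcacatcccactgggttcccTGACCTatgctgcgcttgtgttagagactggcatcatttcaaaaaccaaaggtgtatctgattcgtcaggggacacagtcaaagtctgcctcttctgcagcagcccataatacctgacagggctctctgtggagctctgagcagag
Hsd17b11, chr5:104021747-104022046, minus strand: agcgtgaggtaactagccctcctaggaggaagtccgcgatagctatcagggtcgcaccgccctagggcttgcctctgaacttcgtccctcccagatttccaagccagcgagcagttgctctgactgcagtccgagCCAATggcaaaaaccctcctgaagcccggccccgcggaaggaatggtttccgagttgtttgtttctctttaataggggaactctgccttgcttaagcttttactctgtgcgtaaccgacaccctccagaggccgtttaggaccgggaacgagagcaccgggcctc

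The Plin2 window held a match to the direct repeat with 2 mismatches, on the opposite strand, with its first base at position -225 from the start of the gene. That match contains the hexamer at position -218. It was the only match to this repeat in the 11 windows that the table holds for 9 members, and 3.86% of 32817 mouse promoter windows hold such a match. The hexamer AGGTCA alone was found in windows of 3 members, Plin2, Hsd17b13 and Plin5, and in 16.3% of all windows. Plin2 also had an E-box at position -4, which 7.15% of windows hold. A CCAAT box was present in windows of 5 members, Plin2, Hsd17b11, Plin4, Plin5 and Plin3 (37.4% of all windows), a TATA box in that of Cideb (13.6%), and the sterol element in none of the 11 (1.24%). The Fitm2 window held none of these motifs. A match is a string of letters and not a measured binding site.

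In KO livers, Fitm2, Hsd17b11 and Plin2 averaged lower and Plin4 and Hsd17b13 averaged higher than in WT livers, and none of these differences passed the test over all genes. The mean of Fitm2 in KO was 0.670 times that in WT, that of Hsd17b11 0.784 times, that of Plin2 0.740 times, that of Plin4 1.97 times and that of Hsd17b13 1.15 times. Plin3, Plin5, Cideb and Cidec differed by less than their standard errors between genotypes, and Cidea was near the limit of detection. edgeR's quasi-likelihood test called 0 of the 9 members tested and 0% of all genes tested. At an unadjusted p under 0.05 it found 3 of the 9 (Plin4 higher, Hsd17b11 and Fitm2 lower), where 7.17% of all genes passed. DESeq2 called 0 of 9 members and 1.06% of the genes it adjusted, and at an unadjusted p it found the same number of members, 3, against 4.28% of genes. limma-voom called 0 members and 0.0363% of genes, and found 3 members at an unadjusted p against 7.06% of genes. Without KO replicate 4, edgeR called 0 members and 0.808% of genes, with 3 members and 12.1% of genes at an unadjusted p, and without WT replicate 3 it called 0 members, with 4 members and 7.86% of genes at an unadjusted p. With the replicate number as a block, although nothing names the numbers as pairs, edgeR called 2 members, Plin2 and Fitm2, both lower, and 3.4% of genes, of which those lower in KO were 1.8% of all. The KO and WT ranges of CPM lay apart for 3 of the 9 members, Plin4, Hsd17b13 and Hsd17b11, and for 12.4% of all genes tested (6.02% with KO above WT and 6.36% with KO below). The median log2 fold change was 0.08 over the 9 members, 5 of them positive and 4 negative, and -0.0012 over all genes tested.

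**Figure D1:**
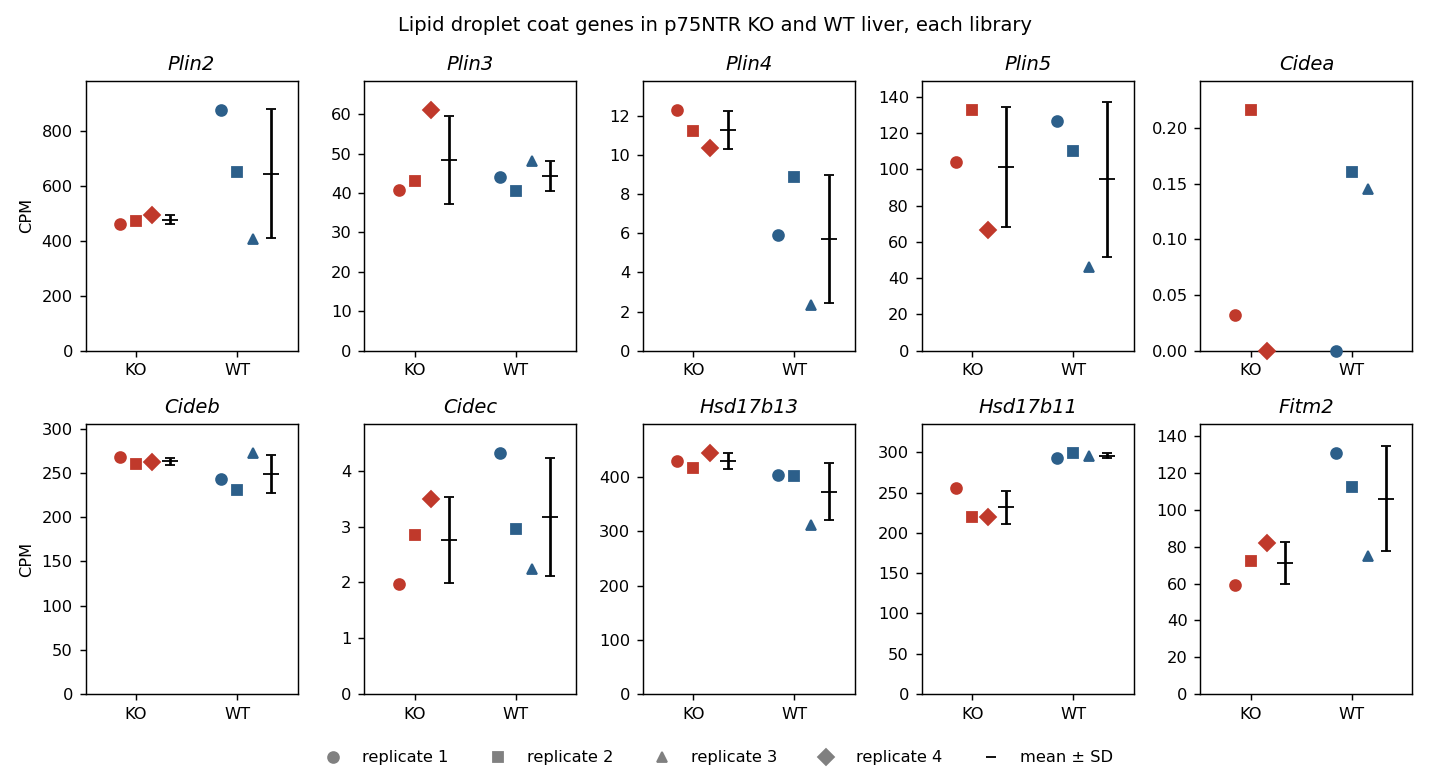
CPM of the 10 members in each library, KO at the left and WT at the right of every panel, with the marker shape giving the replicate and the black bar the mean ± SD (n = 3, not drawn for Cidea). The axes start at 0 and differ between panels. All 3 KO points lie above the WT points for Plin4 and Hsd17b13 and below them for Hsd17b11.

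Fitm2 encodes an endoplasmic reticulum protein that is needed for droplets to bud. Its position is chr2:163466379-163472629 (GRCm38, minus strand). Fitm2 had 59.5, 72.1 and 81.8 CPM in KO replicates 1, 2 and 4, against 131, 113 and 75.04 CPM in WT replicates 1, 2 and 3. The groups overlapped only through KO replicate 4 and WT replicate 3, and KO replicate 1 was the lowest of all libraries. For Fitm2 the log2 fold change was -0.58 (SE 0.21, with an edgeR adjusted p of 0.613 and a DESeq2 adjusted p of 0.257). Without KO replicate 4 the groups no longer overlapped and the value was -0.68 (SE 0.22, edgeR adjusted p = 0.250), and DESeq2 then called Fitm2 (log2 fold change -0.69, adjusted p = 0.0400), as it did 3.01% of the genes it adjusted (1.71% lower in KO). DESeq2 then found 2 members at an unadjusted p, against 6.93% of genes. Without WT replicate 3 it was -0.77 (edgeR adjusted p = 0.310). An antisense RNA, 2310001K24Rik, shares 227 exon bases with Fitm2 on the opposite strand, and it had 2 to 11 counts per library.

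Plin2 (GRCm38 chr4:86648386-86670060, minus strand) was the most abundant perilipin transcript in every liver. Its levels were 463, 474 and 496 CPM in KO livers, against 878, 653 and 406 CPM in WT livers. The KO libraries lay close to each other, and WT replicates 1 and 2 lay above them and WT replicate 3 below. The coefficient of variation was 3.54% in KO and 36.6% in WT. Plin2 had a log2 fold change of -0.43 (SE 0.24, edgeR adjusted p = 0.807). It was -0.68 (edgeR adjusted p = 0.312) without WT replicate 3 and -0.14 without WT replicate 1, so that single WT libraries set its size. Without KO replicate 4 it was -0.46 (edgeR adjusted p = 0.551).

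Plin4 (GRCm38 chr17:56100591-56109803, minus strand) encodes a perilipin known mainly from fat cells and muscle, and it shares 17 exon bases with Hdgfl2 on the opposite strand. Plin4 had 12.3, 11.2 and 10.3 CPM in KO livers, against 5.91, 8.87 and 2.36 CPM in WT livers. Every KO liver was above every WT liver. Plin4 had a log2 fold change of 0.98 (SE 0.39, with an edgeR adjusted p of 0.669 and a DESeq2 adjusted p of 0.217). It was 1.04 (edgeR adjusted p = 0.352) without KO replicate 4, 0.61 (edgeR adjusted p = 0.548) without WT replicate 3 and 1.44 without WT replicate 2.

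Fat cell markers were counted beside Plin4, and their part in its values was not tested. Of 8 adipocyte markers, 7 had at least 1 count and Ucp1 had 0, and their sum was 2.44 to 7.51 CPM in KO and 2.41 to 8.22 CPM in WT livers. Adrb3, the adrenergic receptor of fat cells, made up most of the sum in every liver but WT replicate 3, with 2.41, 2.72 and 7.24 CPM in KO livers, against 2.05, 2.06 and 2.17 CPM in WT livers, and every KO liver was above every WT liver, as for Plin4. The edgeR log2 fold change of Adrb3 was 0.97 on all libraries and 0.30 without KO replicate 4. Adipoq, which encodes the fat cell hormone adiponectin, had 0 counts in all 3 KO libraries, and 5, 3 and 28 counts in WT replicates 1, 2 and 3. For Adipoq every KO liver was thus below every WT liver, the opposite of Plin4. DESeq2 called Adipoq lower in KO (log2 fold change -6.14, adjusted p = 0.0269), where it called 0.536% of genes lower. Without KO replicate 4 DESeq2 called 0 of the 8 adipocyte markers. Adipoq did not pass edgeR's filter on low counts. Plin1, the perilipin of fat cells, had 0, 1 and 4 counts in KO replicates 1, 2 and 4, and 8, 0 and 20 in WT replicates 1, 2 and 3. WT replicate 3 also had 99 counts of Cfd and 15 of Retn, 2 further fat cell genes, and it had the lowest Plin4 of all libraries. Markers of striated muscle summed to 0 to 0.124 CPM.

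Plin5, which tethers droplets to mitochondria, is the next gene to Plin4, 1798 bases away on the same strand of chromosome 17, from 56111601 to 56117596. It had 104, 133 and 66.7 CPM in KO livers, against 127, 110 and 46.3 CPM in WT livers. In each genotype the library that stood lowest, KO replicate 4 or WT replicate 3, was well below the other 2, and the genotypes overlapped. Plin5 had a log2 fold change of 0.10 (SE 0.37, edgeR adjusted p = 0.985), 0.33 without KO replicate 4 and -0.23 without WT replicate 3. Its sign thus depended on which library was left out. On its other side, 2082 bases away, lies Lrg1, a secreted protein gene of the acute phase, with 917, 924 and 594 CPM in KO livers against 368, 325 and 409 CPM in WT livers. DESeq2 called Lrg1 higher in KO (log2 fold change 1.15, adjusted p = 4.73e-07), and edgeR did so without KO replicate 4 (1.33, adjusted p = 0.00636) but not on all libraries (1.14, adjusted p = 0.146). Plin4 and Plin5, beside it, were called in none of these fits.

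Plin3, the ubiquitous perilipin that also occurs free in the cytosol, lies further along the same chromosome, from 56277476 to 56292873. It had 40.7, 43.1 and 61.0 CPM in KO livers, against 44.1, 40.5 and 48.2 CPM in WT livers. KO replicate 4 was the highest library, and the other 2 KO livers lay within the WT range. Plin3 had a log2 fold change of 0.13 (SE 0.17, edgeR adjusted p = 0.944) and turned to -0.07 without KO replicate 4.

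**Figure D2:**
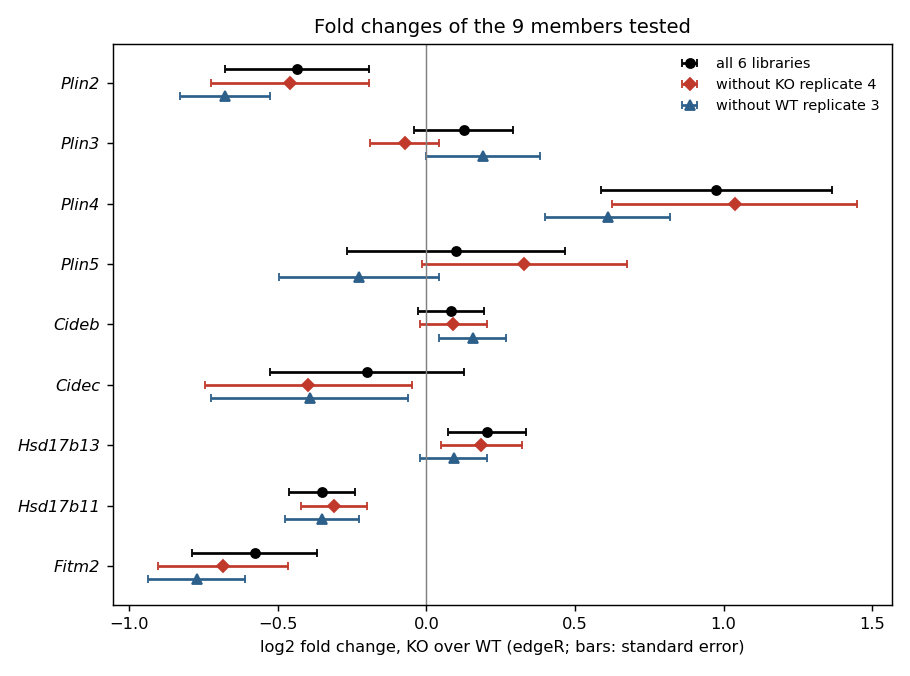
Log2 fold change of KO over WT for the 9 members tested by edgeR, with standard errors, on all 6 libraries (black circles), without KO replicate 4 (red diamonds) and without WT replicate 3 (blue triangles). Fitm2, Hsd17b11 and Plin2 stay below 0 and Plin4 and Hsd17b13 above it in all 3 fits, while Plin3 and Plin5 cross it.

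Per kilobase of exon, Plin2 made up most of the perilipin RNA in every liver, and its share was lower in KO. It was 67.8, 63.7 and 73.9% in KO livers, against 77.3, 74.1 and 76.6% in WT livers, a mean of 68.5% ± 5.16 in KO and 76.0% ± 1.68 in WT (SD, n = 3 each). The ranges did not overlap, and they were separated by less than the SD of either group. The share of Plin5 was 25.6, 30.0 and 16.7% in KO livers, against 18.8, 21.02 and 14.7% in WT livers, and the ranges overlapped. Plin4 held the smallest share, 1.09, 0.915 and 0.934% in KO livers against 0.316, 0.612 and 0.270% in WT livers. Without KO replicate 4 the KO minus WT difference was -10.2 percentage points for Plin2, against -7.52 with it, and 9.63 points for Plin5, against 5.93 with it. These shares are descriptions of ratios between members and were not tested.

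**Figure D3:**
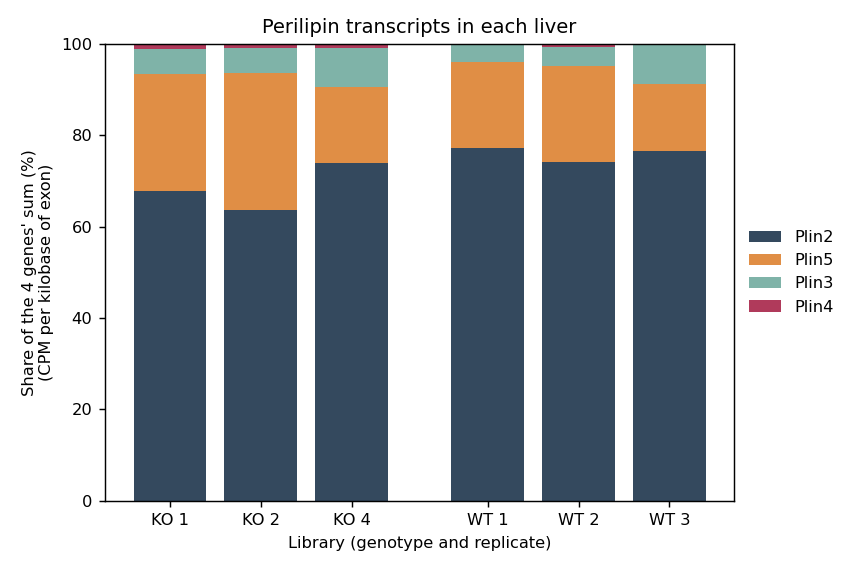
Share of each perilipin gene in the sum of Plin2, Plin3, Plin4 and Plin5, computed from CPM per kilobase of exon, for each KO library at the left and each WT library at the right. Plin2 takes 63.7 to 73.9% of the sum in KO and 74.1 to 77.3% in WT livers.

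Cideb was by far the dominant CIDE gene, at 98.9 to 99.4% of the CIDE sum per kilobase in KO and 98.6 to 99.3% in WT livers. CIDEB is the family member typical of hepatocytes, where it takes part in loading lipid onto very low density lipoprotein. Cideb (GRCm38 chr14:55754050-55758458, minus strand) had 268, 260 and 263 CPM in KO livers, against 244, 230 and 273 CPM in WT livers. The KO values fell within the WT range, and the log2 fold change was 0.08 (SE 0.11, edgeR adjusted p = 0.944), and 0.09 without KO replicate 4. Cideb shares 1136 exon bases with Nop9 on the opposite strand, which had 23.7 to 27.1 CPM in KO and 23.1 to 28.6 CPM in WT livers. The libraries were directional, but no source used here names the strand option of the counting, and reads of Cideb and Nop9 may be mixed.

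Cidec, which forms the large droplets of fat cells and of fatty liver, was low in these livers. Cidec (GRCm38 chr6:113424634-113435760, minus strand) had 62, 92 and 102 counts in KO livers, against 133, 92 and 62 counts in WT livers, or 1.96, 2.84 and 3.498 CPM in KO and 4.32, 2.96 and 2.25 CPM in WT. The groups overlapped throughout. Its log2 fold change was -0.20 (SE 0.33, edgeR adjusted p = 0.951), -0.40 without KO replicate 4 and 0.09 without WT replicate 1. Cidea, the family member known from brown fat (GRCm38 chr18:67343604-67367785, plus strand), did not pass the filter on low counts. It had 1, 7 and 0 counts in KO livers, against 0, 5 and 4 counts in WT livers. Scaled by library size, the KO to WT ratio of its 8 and 9 counts was 0.855, with an exact 95% interval of 0.287 to 2.496 that covers counting error only. That interval is no detection limit, because it leaves out the spread between livers. DESeq2 gave Cidea a log2 fold change of -0.28 with a standard error of 1.76. No difference in Cidea can be judged from these counts.

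Hsd17b13 and Hsd17b11 encode closely related dehydrogenases of the droplet surface, and HSD17B13 in particular is known from liver. They are neighbours on chromosome 5 of GRCm38, on the minus strand, with 12352 bases between them. Hsd17b13, from 103955440 to 103977410, had 429, 416 and 444 CPM in KO livers, against 405, 402 and 312 CPM in WT livers. Hsd17b11, from 103989762 to 104021919, had 256, 220 and 220.3 CPM in KO livers, against 293, 299 and 296 CPM in WT livers. For both genes the genotypes lay apart, Hsd17b13 higher in every KO liver and Hsd17b11 lower. The log2 fold change of Hsd17b11 was -0.35 (SE 0.11, with an edgeR adjusted p of 0.521 and a DESeq2 adjusted p of 0.310), and -0.31 without KO replicate 4. That of Hsd17b13 was 0.20 (SE 0.13, edgeR adjusted p = 0.861), 0.19 without KO replicate 4 and 0.09 (edgeR adjusted p = 0.912) without WT replicate 3, the lowest WT library. Per kilobase, the ratio of Hsd17b13 to Hsd17b11 was 2.54, 2.86 and 3.05 in KO livers, against 2.09, 2.04 and 1.596 in WT livers. All KO ratios were above all WT ratios, which follows from the opposite separation of both genes and adds nothing to it. The ratio was noticed in these values and was not tested.

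Ranked by CPM per kilobase of exon, Hsd17b13 had the highest mean level of the 10 in KO livers (199 ± 6.51), followed by Cideb (177 ± 2.64) and Plin2 (136 ± 4.81, SD, n = 3 each). In KO livers the values of these 3 genes did not overlap. In WT livers the same 3 genes led, with Plin2 at 184 ± 67.3, Hsd17b13 at 173 ± 24.5 and Cideb at 167 ± 14.5 (SD, n = 3 each), and their values overlapped, so that no order among them can be given. Hsd17b11 came next in both genotypes, at 71.1 ± 6.29 in KO and 90.6 ± 0.915 in WT, followed by Plin5, Fitm2 and Plin3. Among these, Fitm2 and Plin3 overlapped in KO and Plin5 and Fitm2 in WT livers. Plin4, Cidec and Cidea were the lowest, and Plin4 and Cidec overlapped in both genotypes.

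Most members varied less among KO than among WT livers. The coefficient of variation was lower in KO for 7 of the 9 members tested, the exceptions being Plin3 and Hsd17b11, and it was lower in KO for 42.2% of all genes tested. Each coefficient rests on 3 livers, and the KO group includes replicate 4, which stood apart in sex-linked and sex-biased RNA. That library can raise the KO variation of other genes, so 42.2% is no neutral baseline. The coefficients were not compared without it, and the difference in spread was not tested. WT replicate 3 had the lowest value of all 6 libraries for 4 of the 9 (Plin2, Plin4, Plin5 and Hsd17b13), and for 17.8% of all genes tested. Of 10 lipogenic genes, Scd1, which makes monounsaturated fatty acids, had most of the summed level, with 2975, 10161 and 14357 CPM in KO livers, against 8537, 8946 and 1952 CPM in WT livers, lowest in WT replicate 3. Fasn, the fatty acid synthase gene, had 151, 287 and 469 CPM in KO livers, against 291, 190 and 266 CPM in WT livers, and was not lowest in WT replicate 3. The 10 genes thus did not share an order of the libraries. The summed level of 8 Kupffer cell and macrophage markers was 461, 252 and 275 CPM in KO livers, against 255, 284 and 532 CPM in WT livers, highest in WT replicate 3. That of 8 stellate cell markers was 430, 406 and 428 CPM in KO livers, against 391, 276 and 302 CPM in WT livers. This sum was higher in every KO liver than in every WT liver, and Dcn was its largest part in each liver. For 0 of the 8 stellate cell markers did the KO and WT ranges lie apart, against 12.4% of all genes tested. By edgeR 7 of the 8 had higher levels in KO (median log2 fold change 0.42), with 0 called. At an unadjusted p under 0.05 it found 2 of the 8, where 7.17% of all genes passed. The part of lipogenic genes, macrophages or stellate cells in the values of the members was not tested.

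Patterns like those of single members were sought among 12026 other genes with a mean of at least 1 CPM, by the mean absolute difference of log2 deviations over the 6 libraries. Nearest to Plin2 was the noncoding RNA gene 9030616G12Rik (0.0642), followed by Tnfaip8l1 (0.0687) and Tax1bp3 (0.0913). Tnfaip8l1 had 34.5, 37.1 and 33.95 CPM in KO livers, against 59.2, 49.7 and 29.6 CPM in WT livers. Its order of libraries was that of Plin2 in WT, which the choice by likeness favours, and differed from it in KO. For Plin5 the nearest were the ganglioside synthase gene St3gal5 (0.121), Ppp1r3b (0.122), which directs glycogen synthesis, and Alas1 (0.183), the first enzyme of heme synthesis. Cideb was nearest to G6pc3 (0.0127), Tpm3 (0.0224) and Zfp146 (0.0233), and Cidec to Stxbp4 (0.0687), Mblac1 (0.0760) and Alpl (0.0903). These distances over 6 libraries are descriptions and were not tested.

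Other proteins of the droplet, which form, tether or hydrolyse it, were described from a list of 31 genes, of which 30 were tested. Their median log2 fold change was -0.07, with 13 positive and 17 negative values. None was called by edgeR (0 of 30). At an unadjusted p under 0.05 edgeR found 3 (G0s2, Mgll and Mettl7b, all lower in KO), where 7.17% of all genes passed in either direction. For limma-voom the count of calls was 0, where it called 0.029% of all genes lower. DESeq2 called G0s2 and Mgll lower, where it called 0.536% of genes lower. The same 3 genes were those whose KO range lay below the WT range, where 6.36% of all genes did. G0s2, an inhibitor of the lipase ATGL, had 50.9, 89.7 and 67.9 CPM in KO livers, against 188, 175 and 132 CPM in WT livers. Mgll, which splits monoacylglycerol, had 269, 371 and 278 CPM in KO livers, against 583, 485 and 519.8 CPM in WT livers. The log2 fold change was -1.25 for G0s2 (SE 0.22, with an edgeR adjusted p of 0.161 and a DESeq2 adjusted p of 2.35e-06) and -0.79 for Mgll (SE 0.15, with an edgeR adjusted p of 0.198 and a DESeq2 adjusted p of 5.4e-04). Mettl7b, a membrane protein of droplets, had -0.27 with and without KO replicate 4 (edgeR adjusted p = 0.695 with it). Without KO replicate 4, edgeR called 0 of the list, where it called 0.454% of all genes lower, with adjusted p of 0.0715 for G0s2 and 0.0946 for Mgll.

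Other genes of the list were called by neither edgeR nor DESeq2. Pnpla2, which encodes ATGL itself, had 151 ± 10.6 CPM in KO and 134 ± 16.6 CPM in WT livers, and Dgat2, which makes triglyceride, 704 ± 110 CPM in KO and 740 ± 12.6 CPM in WT (SD, n = 3 each). Bscl2, which encodes seipin at the site of droplet formation, had 45.6 ± 4.30 CPM in KO and 48.8 ± 2.20 CPM in WT (SD, n = 3 each). Their log2 fold changes were 0.17, -0.07 and -0.10, each with an adjusted p of at least 0.885 by edgeR, and 0.12, -0.16 and -0.06 without KO replicate 4. Fitm1, the muscle relative of Fitm2, had 6.43, 5.22 and 24.7 CPM in KO livers, against 7.28, 7.71 and 6.85 CPM in WT livers. Its high value was that of KO replicate 4 alone, and its log2 fold change of 0.73 became -0.32 without that library. These 4 genes and Mettl7b were named after their values were seen.

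**Figure D4:**
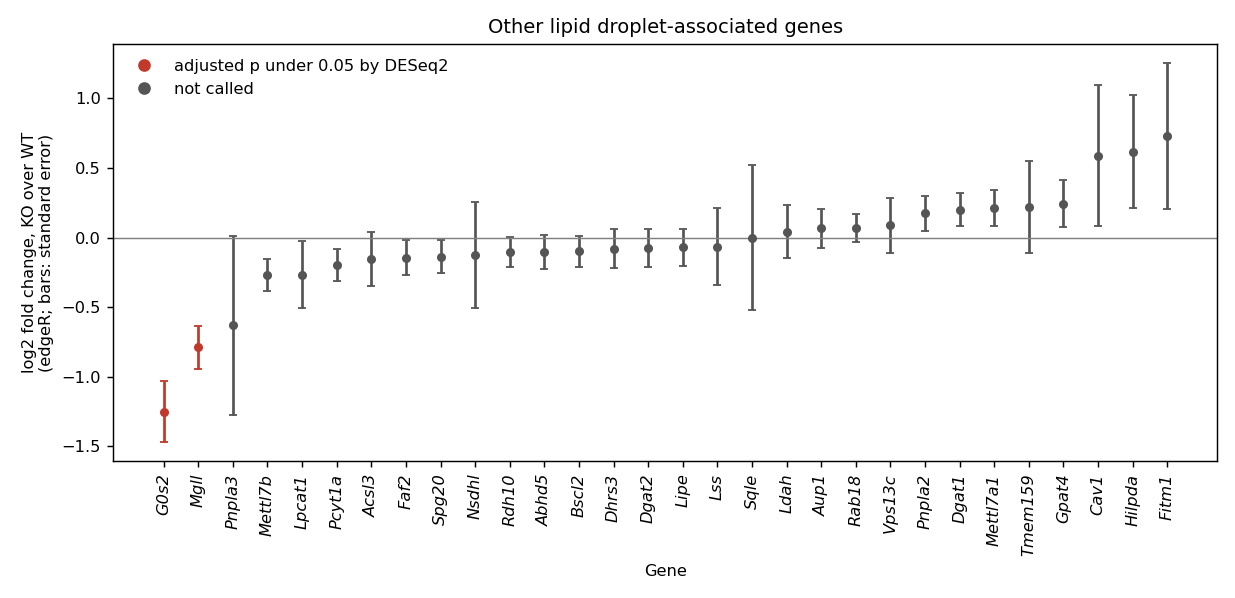
Log2 fold change of KO over WT by edgeR with its standard error for the 30 other droplet-associated genes tested, ordered by value. G0s2 (-1.25) and Mgll (-0.79), in red, were called by DESeq2.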

How the data were processed

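Polyadenylated RNA of 6 livers was sequenced as directional single-end libraries. The authors deposited whole-number counts per gene, not normalized. Per the methods and the submitters' processing notes, reads were trimmed with Trimmomatic, aligned with STAR 2.5.0c to GRCm38.p5 with GENCODE M12, counted with featureCounts and tested with DESeq2; which strand option the counter ran with is not stated in the labels or methods. Of 49671 genes, 49326 had a GENCODE M21 entry, which gave symbols, positions and exon lengths.

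The test was that of edgeR 4.0.16 under R 4.3.3 (filterByExpr, TMM, glmQLFit, glmQLFTest), with Benjamini-Hochberg adjustment over all genes tested. Depth was 27107209 to 32664149 counts per library, and intervals cover counting error only. With 3 livers per genotype, exact permutation of labels reaches no p below 0.1. Libraries of a genotype differed by more than sampling noise (chi-square over its degrees of freedom, 16.8 to 172). Alternatives were DESeq2 1.42.0, limma-voom (limma 3.58.1), other scalings and filters, robust dispersions, each library left out, and a replicate block. Standard errors given with edgeR's log2 fold changes were derived as the absolute log2 fold change over the square root of the test's F statistic. CPM per kilobase used the union of exons. The tests were tried on simulated counts.

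The members and lists were chosen with earlier results of these data known. Named genes were the members, Ngfr, list members called by DESeq2, the 3 most alike genes for Plin2, Plin5, Cideb and Cidec, and neighbours of members. Other genes of the lists (Pnpla2, Dgat2, Bscl2, Fitm1, Mettl7b, Plin1, Adipoq, Cfd, Retn, Adrb3, Ucp1, Scd1, Fasn, Dcn, Pck1, Igfbp1 and Tat) were named outside that rule, after their values were seen. Some listed markers served only as sums.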

Additional observations from a re-analysis of the deposited data

How the results depend on the processing

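Over all genes, edgeR made 0 calls, DESeq2 158, limma-voom 5, edgeR with no filter on low counts 136, edgeR with robust dispersions 9, and DESeq2 without KO replicate 4 402. With each library left out in turn, edgeR made 0 to 114 calls, the 114 without KO replicate 4. Among the members the count of calls was 0 with every library left out (0 to 0) and in all alternatives except DESeq2 without KO replicate 4, which called 1 (Fitm2, -0.69), and the replicate block. Among the other droplet-associated genes it was 0 to 0 with a library left out, and 2 (G0s2 and Mgll) by DESeq2, with no filter, with the block and by DESeq2 without KO replicate 4. Replicate numbers 1 and 2 occur in both genotypes, nothing names them as pairs, and same-numbered libraries deviated with r = -0.124 and 0.0259 over 13773 genes. With the replicate block, which rests on those 4 libraries, edgeR made 468 calls, 2 of them members, Plin2 (-0.69) and Fitm2 (-0.89), with Plin3 at -0.014 and Plin5 at -0.0094.

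Ngfr passed the threshold by DESeq2 (-1.51), with no filter (-1.51), with the replicate block (-1.88) and by DESeq2 without KO replicate 4 (-1.64). With a library left out, the log2 fold change ranged from -1.70 to -1.25 for Ngfr, -0.68 to -0.14 for Plin2, -0.07 to 0.24 for Plin3, 0.61 to 1.44 for Plin4, -0.23 to 0.38 for Plin5, 0.03 to 0.16 for Cideb, -0.40 to 0.094 for Cidec, 0.09 to 0.27 for Hsd17b13, -0.42 to -0.31 for Hsd17b11 and -0.77 to -0.39 for Fitm2. DESeq2 without KO replicate 4 gave -0.073 for Plin3, and edgeR without it -0.073. Fitm2, Hsd17b11, Plin2, Plin4, Cideb and Hsd17b13 kept their direction in every fit. The KO minus WT difference in the share of Plin4 in the perilipin sum was 0.581 percentage points per kilobase and 1.06 without division by length. The causes of these shifts were not tested. Depth limits Cidea, with 0 to 7 counts per library.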

Other observations

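Genes that respond to PPAR-alpha, the receptor known to control Plin2, had lower levels in KO livers for nearly the whole list. Of 20 PPAR-alpha targets, 19 had lower levels in KO (median log2 fold change -0.75), against 0.08 for the 9 members tested and -0.0012 for all genes tested. The median of the members was -0.07 without KO replicate 4 and -0.23 without WT replicate 3, with 5 of 9 lower in both, and that of the PPAR-alpha targets was -0.72 and -0.78. On all libraries edgeR called 0 of the 20, limma-voom 2 (0.0363% of all genes) and DESeq2 9 (1.06% of genes). When KO replicate 4 was left out, edgeR called 8 (0.808% of genes) and DESeq2 13 (3.01% of genes), all lower. On all libraries 14 had an unadjusted p under 0.05 by edgeR, all lower, where 7.17% of all genes did in either direction. The summed level of the 20 was 13912, 15646 and 13228 CPM in KO livers, against 24498, 23499 and 23592 CPM in WT livers. WT replicate 3, which had the lowest Plin2, Plin4 and Plin5, did not stand apart in this sum. The list of targets was chosen with earlier results of these data known, and it holds genes that the paper reports as changed in these livers. Its counts are therefore no independent evidence. The targets were counted in the same libraries as the members, and the difference between the lists was not tested.

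Fasting genes gave another order of the libraries. The 5 genes, Pck1 and Igfbp1 among them, all had positive log2 fold changes (median 0.39), with 0 calls and 1 at an unadjusted p under 0.05 by edgeR (7.17% of all genes) and 0 calls by DESeq2 or limma-voom. Without KO replicate 4 edgeR called 1 of them (0.808% of all genes), and their median was 0.57. The gene called was Tat (log2 fold change 1.41, edgeR adjusted p = 0.0496), which is also among the 6 hepatocyte markers. In that fit 4 of the 5 had an unadjusted p under 0.05, all higher in KO, where 12.1% of all genes did. Their sum was 6600, 7544 and 3678 CPM in KO livers, against 4057, 5113 and 2909 CPM in WT livers.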
